A study of Homo sapiens with 9 samples.

Results

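The comparison set 3 libraries of U251 cells exposed to 1500 µM temozolomide against 3 libraries exposed to 200 µM, 6 of the 9 libraries of a pooled sgRNA screen. U251 is an established human glioma line. The members were chosen by the dose in the sample titles, and a library at 1500 µM was paired with the library at 200 µM that carries the same replicate number. In both groups the cells carried integrated sgRNAs, were cultured in serum-containing DMEM, received the drug for 72 hours and gave the DNA in which the guides were counted. The groups differ, per the labels, only in dose. Sample titles state the doses in µM but the treatment protocol has nM beside identical figures, so µM serves here only as the name of the groups. The sources used here do not name the nuclease or vector, or how long the cells had carried the guides. The table held 11170 guides, 10 for each of 1117 genes, and the test took the 10337 guides that reached 10 counts in 3 or more of the 9 libraries. The question was which genes had guides that marked more or fewer of the cells at the high dose than at the low one. Expression was not measured, so the cell line could not be checked against its markers, and guide sequences were not used here.

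Temozolomide alkylates DNA, and its toxic lesion at guanine is removed by a direct repair enzyme or turned into lethal breaks by mismatch repair. In a pooled screen each cell carries a guide that directs a change at its target gene, so the share of a guide in the DNA reports how many cells with that guide are left. Whether the change was a cut is not known here, because the nuclease is not named. The ubiquitin system, which most of the targeted genes belong to, attaches ubiquitin to proteins through E1, E2 and E3 enzymes in turn and sends many of them to the proteasome. Shares are relative: a guide whose cells died and a guide outgrown by the cells of others cannot be told apart in such counts. Levels are given below as raw counts or as CPM, which are counts divided by TMM-scaled library totals, and changes as log2 of 1500 over 200 µM.

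The 6 libraries held 1979391 to 2790563 counts, or 177 to 250 per guide on average. Between the doses, libraries with the same replicate number resembled each other more than libraries with unlike numbers. Libraries of the same dose were not compared with each other. Their log2 levels correlated across guides at 0.82, 0.87 and 0.80 between the doses for replicates 1, 2 and 3, and at 0.40 to 0.48 for unlike numbers. The labels do not say whether a number marks a separate culture, so a p-value here speaks of the spread between libraries alone, and that spread may be technical. At 1500 µM, 1 guide against UBE2A took 4.97 to 18.6% of a library's counts. With library sizes taken without that guide edgeR called 0 guides, and with the guide left out edgeR called 0 summed genes and, at the same scaling, limma 0 genes by mean guide level. The numbers at an unadjusted p under 0.05 were then 197, 74 and 76.

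No guide passed the main test, edgeR's quasi-likelihood test with the replicate number as a block. It called 0 of 10337 guides (0%) at an adjusted p under 0.05, with 202 guides at an unadjusted p under 0.05, 96 higher and 106 lower at 1500 µM, where uniform p-values would give 517. DESeq2's Wald test with the same block had 1052 guides at an unadjusted p under 0.05, above the 517 of uniform p-values where edgeR lay below. It called 43 of the 4926 guides it gave an adjusted p, 14 higher (0.284%) and 29 lower (0.589%). With limma-voom 0 guides were called. The guides named next therefore have a call only where DESeq2 is cited.

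Of the guides of lowest p among the higher ones, RNF121.10 had the clearest separation. RNF121 is a RING-type ubiquitin ligase of the secretory pathway membranes. This guide had 117, 73 and 86 counts in replicates 1, 2 and 3 at 200 µM and 365, 216 and 262 at 1500 µM, and the groups did not overlap. The log2 fold change reached 1.55 ± 0.39 (SE) in edgeR, and the DESeq2 adjusted p was 0.0033. The other guides against RNF121 did not follow, since 2 of 8 were higher.

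XIAP.8 targets XIAP, an inhibitor of caspases. Its counts were 503, 604 and 3096 at 200 µM and 1323, 2526 and 3641 at 1500 µM, so each replicate was higher but the groups overlapped. The log2 fold change was 1.176 ± 0.31 (SE) in edgeR with a DESeq2 adjusted p of 0.0489. Of the 8 other XIAP guides 3 were higher and 5 lower. XIAP.8 held 46599 counts in replicate 1 at 0 µM, against 718 and 466 in replicates 2 and 3 there.

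PINK1.5, against a kinase that marks damaged mitochondria, had 30, 342 and 11 counts at 200 µM and 113, 686 and 74 at 1500 µM. Its log2 fold change was 1.74 ± 0.48 (SE) in edgeR and its DESeq2 adjusted p was 0.0489, and 7 of the 9 other PINK1 guides were higher too. For PINK1.5 each replicate was higher at 1500 µM, and replicate 2 stood above the others at both doses. HERC3.5, against a HECT-type ligase, had 1123, 27 and 76 counts at 200 µM and 1952, 111 and 152 at 1500 µM. Its log2 fold change of 1.17 ± 0.33 (SE) passed in neither edgeR nor DESeq2 (adjusted p = 0.0655 in the latter). UBE2D4.9, against a ubiquitin-conjugating E2 enzyme, had 264, 329 and 122 counts at 200 µM and 686, 565 and 233 at 1500 µM. In edgeR the log2 fold change was 0.98 ± 0.28 (SE), with a DESeq2 adjusted p of 0.0185, and 8 of the 9 other UBE2D4 guides were higher too.

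Among the lower guides, LNX2.4 had the lowest p. LNX2 is a RING-type ligase that binds the Notch inhibitor Numb. The guide had 1442, 116 and 296 counts at 200 µM and 1023, 28 and 88 at 1500 µM. It was lower in every replicate, and replicate 1 stood far above the others at both doses. The fit gave a log2 fold change of -1.44 ± 0.33 (SE) in edgeR with a DESeq2 adjusted p of 0.0099. The other guides against LNX2 did not follow, since 2 of 9 were lower and 7 higher.

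FZD4.7 targets FZD4, a Wnt receptor. It had 241, 238 and 361 counts at 200 µM and 153, 83 and 82 at 1500 µM, with no overlap of the groups, and a log2 fold change of -1.49 ± 0.40 (SE) in edgeR with a DESeq2 adjusted p of 0.011. Of the 9 other FZD4 guides 4 were lower and 5 higher. BIRC2.8, against an inhibitor of apoptosis protein that acts as a ligase in TNF receptor signalling, had 1113, 628 and 1682 counts at 200 µM and 623, 504 and 752 at 1500 µM. In edgeR it had a log2 fold change of -0.82 ± 0.24 (SE), with a DESeq2 adjusted p of 0.0364, and 7 of the 9 other BIRC2 guides were lower too.

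EED.6, against a subunit of Polycomb repressive complex 2, had 390, 206 and 1642 counts at 200 µM and 118, 150 and 774 at 1500 µM. Its log2 fold change of -1.13 ± 0.34 (SE) passed in neither edgeR nor DESeq2 (adjusted p = 0.0726 in the latter). TRIM27.6, against a TRIM-family ligase, had 824, 571 and 1554 counts at 200 µM and 564, 353 and 920 at 1500 µM, and a log2 fold change of -0.72 ± 0.22 (SE) in edgeR with a DESeq2 adjusted p of 0.0162. Replicates kept their order in this guide, so the 200 and 1500 µM ranges overlapped although each replicate was lower. Of the 9 other TRIM27 guides 4 were lower and 5 higher.

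**Figure D1:**
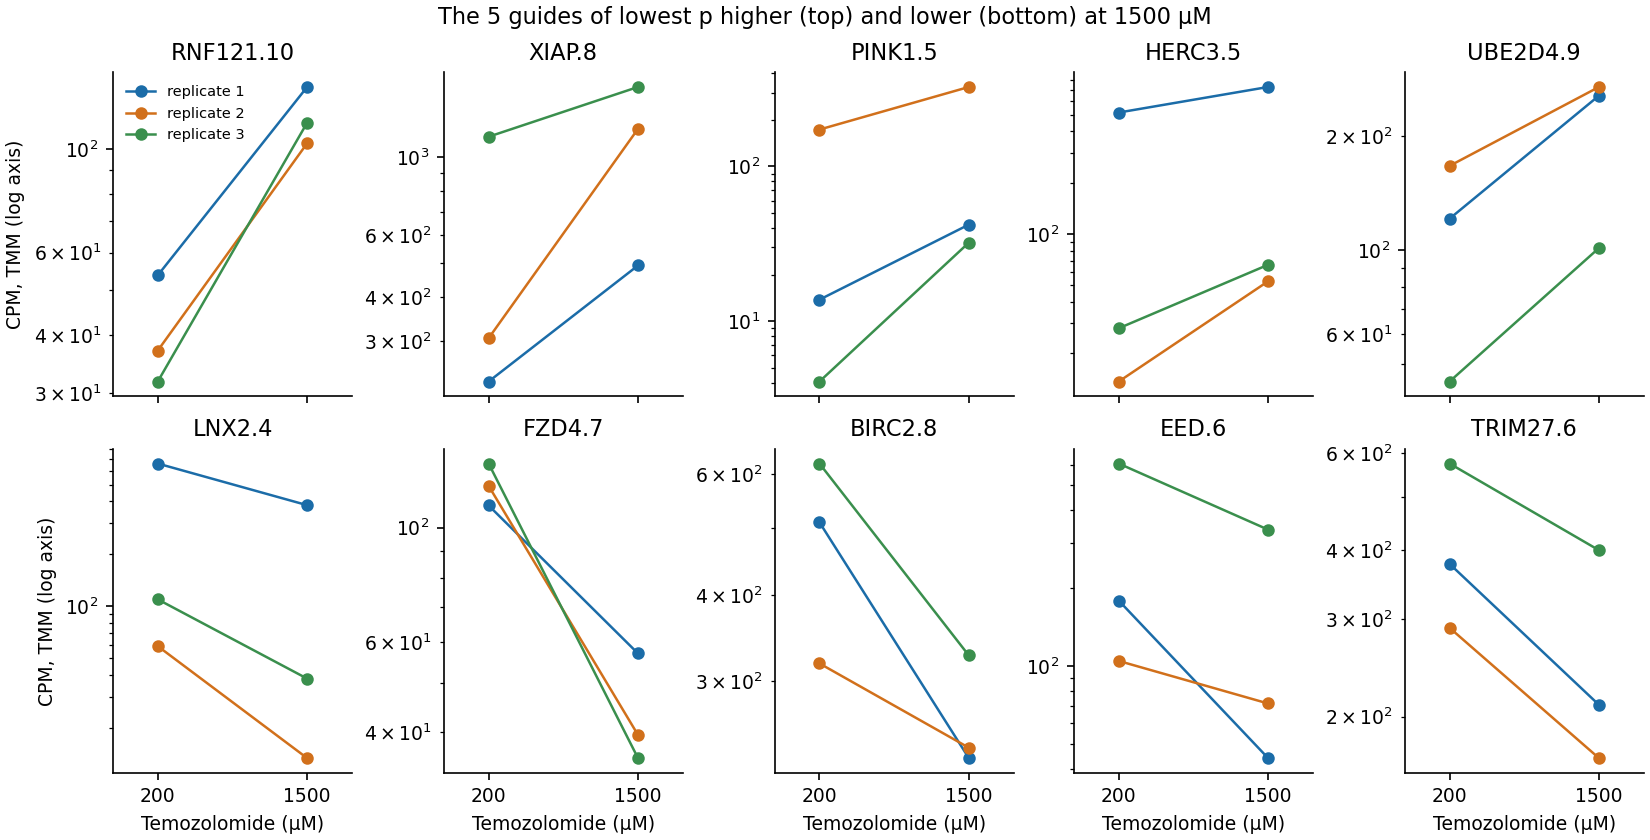
Level in CPM after TMM scaling (log axis, with its own range in each panel) at 200 and 1500 µM temozolomide for the 5 higher guides (top row) and the 5 lower guides (bottom row) of lowest p in edgeR. Each line joins the 2 libraries of 1 replicate number; all 3 lines climb in the top row and all 3 descend in the bottom row, and the replicates are often further apart than the doses.

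Up to 10 guides per direction are named here of the 43 that DESeq2 called. The others of these among the higher guides were SOCS5.8, against a suppressor of cytokine signalling (309, 106 and 166 counts against 630, 232 and 306 at 1500 µM), TNFAIP3.9, WDR26.9, KAT6A.1, CRBN.2, SPG20.6 and TRIM69.4. Over all 14 higher guides the edgeR log2 fold changes ran from 0.72 for TRIM69.4 to 1.74 for PINK1.5. The others among the lower guides were MARCH6.1, against a ligase of the endoplasmic reticulum (331, 148 and 367 counts against 186, 71 and 138), FBXO4.10, PTTG1IP.10, DTX3L.7, ERCC8.7 and PEX2.1. Over all 29 lower guides the fold changes ran from -1.49 for FZD4.7 to -0.50 for TNKS.3. All 43 moved the same way in all 3 pairs, which picking guides by a blocked test favours.

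The 43 guides targeted 43 genes, 14 of them higher and 29 lower, and no gene had more than 1. Over the 14 higher guides, 73 of 122 other tested guides of the same genes were higher too (59.8%), where 53.7% of all tested guides were higher in the fit. Over the 29 lower guides, 117 of 254 were lower too (46.1%), where 46.3% of all tested guides were. The level of the guide at 0 µM lay between its levels at 200 and 1500 µM for 11 of the 14 higher and 21 of the 29 lower guides. The 43 were picked for a gap between those doses, which favours this placement. The share over all tested guides was not computed, so no trait of the called guides is read from it. With independent filtering set for a rate of 0.1 instead of 0.05, DESeq2 called 20 guides, without that filtering 11, and in a fit over all 9 libraries 4, and none of those 4 was among the 43.

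A direction shared by all 3 pairs was common, as it would be for pairs with unrelated directions. Of the tested guides, 1394 were higher in all 3 pairs (13.5%) and 1169 lower in all 3 (11.3%). A change of at least 2-fold in all 3 pairs was seen for 69 guides upwards (0.668%) and 43 downwards (0.416%). These were scarce guides, with a median count of 32.0 and 37.7 per library against 153 for all tested guides, and 53 of the 69 and 34 of the 43 had a count of 0 in at least 1 of the 6 libraries. RNF141 and UBA2 had 2 such guides each, both higher, and no other gene had more than 1. Of the 17 with at least 10 counts in every library, the higher ones included TRIB3.8, against a pseudokinase of the stress response (287, 10 and 155 counts against 722, 81 and 306), NLK.2, against a kinase that restrains Wnt signalling (32, 32 and 46 against 348, 82 and 143), and BRE.4, against a subunit of BRCA1-A and BRISC complexes (93, 79 and 36 against 371, 187 and 133). The lower ones included ARRDC4.7, against an arrestin-domain adaptor (120, 125 and 144 against 37, 47 and 57), and PCBP2.8, against an RNA-binding protein (127, 91 and 188 against 71, 45 and 41). These 17 were looked at after their values were seen, and of those named here only TRIB3.8 was called by DESeq2.

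Complete loss or appearance was rare. MVB12A.8, against an ESCRT-I subunit, KCTD14.5 and ANAPC5.5, against a subunit of the anaphase-promoting complex, had at least 10 counts in all 3 libraries at 200 µM and none at 1500 µM (3 guides, 0.029%). MVB12A.8 went from 33, 12 and 139 counts to 0 in each library. Pooled over the 3 libraries of a dose it was at least 63.3-fold lower, against a floor of 3 counts over the group. This bound and those below are pooled and do not cover the spread between libraries. In replicate 2 MVB12A.8 fell only from 12 counts to 0. KCTD14.5 went from 21, 33 and 24 counts to 0, at least 26.8-fold lower, and ANAPC5.5 from 25, 12 and 24 counts to 0, at least 21.0-fold lower. The reverse was seen for MOCS3.2, CUL9.1, MED6.9, TRIM33.2 and SENP1.1 (5 guides, 0.0484%). MOCS3.2, against a sulfur-transfer E1 enzyme, went from 0 in each library to 47, 38 and 23 counts, at least 34.9-fold higher. ANAPC5.5 held 2, 0 and 0 counts at 0 µM and SENP1.1 held 0 in all 3. All 8 guides passed the count filter only through the dose at which they were present, since none had 10 counts in all 3 libraries at 0 µM. Their loss or appearance is therefore not independent of the filter. The near absence of ANAPC5.5 and SENP1.1 at 0 µM adds nothing to it. None of the 8 passed in edgeR, and DESeq2 with its filtering gave none of them an adjusted p.

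The pairs disagreed on which guides changed. Across the 10337 guides the log2 ratio of pair 1 correlated with that of pair 2 at -0.011 (Pearson), pair 1 with pair 3 at 0.022 and pair 2 with pair 3 at 0.036, with Spearman values of 0.0089, 0.021 and 0.041. Over the 2409 guides with at least 100 counts in all 6 libraries the Pearson values were 0.099, 0.044 and 0.044. At the level of 1116 genes they were -0.064, 0.017 and 0.088. These values describe guides of shared libraries and carry no p. The spread within a pair was nevertheless larger than counting alone gives: for guides with at least 100 counts in both libraries of a pair, the SD of the log2 ratio was 0.55, 0.47 and 0.55 in pairs 1, 2 and 3, against a counting error of 0.12 to 0.13. Guides of 1 gene shared little of that spread, with an intraclass correlation of 0.0038, 0.022 and 0.011 in the 3 pairs.

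**Figure D2:**
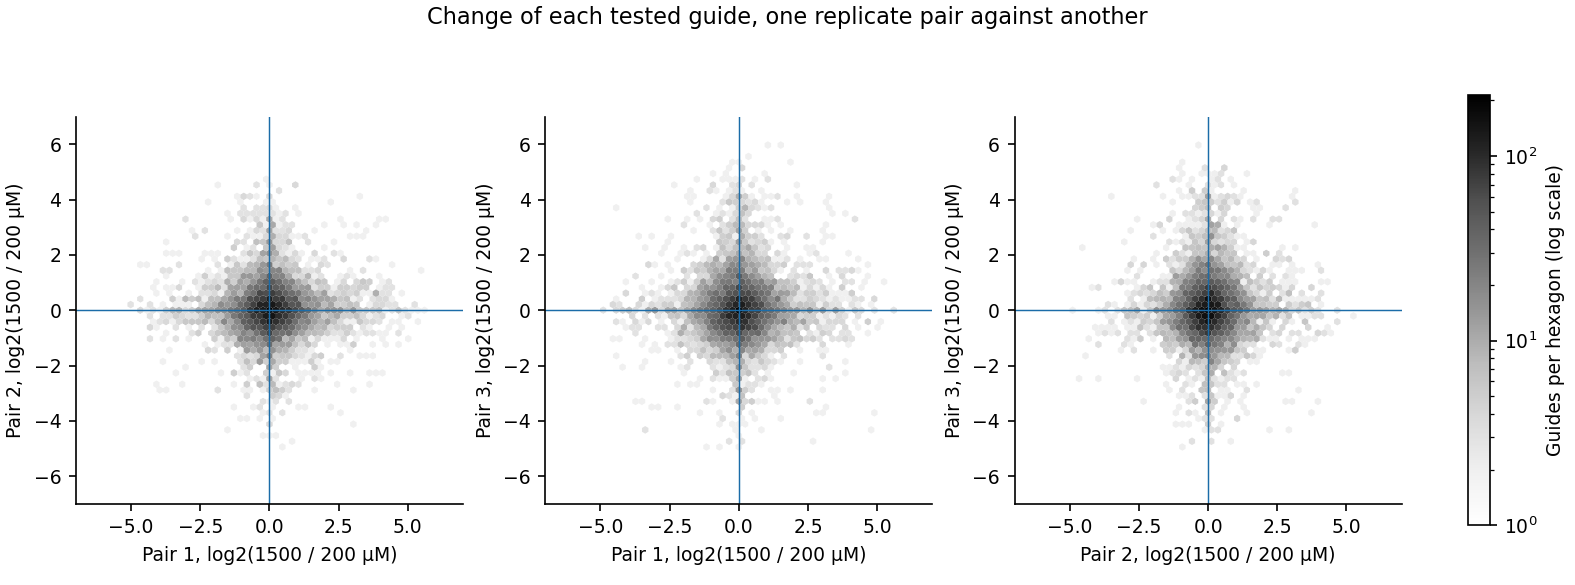
Log2 ratio of 1500 over 200 µM for each of the 10337 tested guides, on log2(CPM + 1), in 1 replicate pair against another, with darker hexagons holding more guides (log colour scale). The clouds are upright crosses with no slope, at Pearson correlations of -0.011, 0.022 and 0.036 across guides.

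Summed over guides, no gene passed edgeR's test either (0 of 1117, 0%), with 74 genes at an unadjusted p under 0.05, 31 higher and 43 lower. The lowest adjusted p was 0.208. DESeq2 called 24 of the 943 genes it gave an adjusted p, 6 higher (0.636%) and 18 lower (1.91%), and limma-voom called 0. All 24 moved the same way in all 3 pairs, which picking genes by a blocked test favours. Among all genes 159 were lower (14.2%) and 155 higher (13.9%) in all 3 pairs. The sizes were small, with log2 fold changes of 0.32 to 0.59 for the 6 and from -0.55 to -0.25 for the 18 in edgeR.

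BIRC2, XIAP and TRAF3 had the lowest p, XIAP being higher at 1500 µM and the other two lower. BIRC2 sums were 4615, 5006 and 4054 counts at 200 µM and 3838, 3701 and 2867 at 1500 µM. Each replicate was lower, but after scaling for library size the groups overlapped. In CPM the level was 2031 ± 430.4 at 200 µM and 1475 ± 189 at 1500 µM (SD, n = 3). The log2 fold change was -0.45 ± 0.091 (SE), with an adjusted p of 0.208 in edgeR and 3e-05 in DESeq2. TRAF3, an adaptor that works with BIRC2 in the turnover of the kinase of non-canonical NF-kappaB signalling, had 2430, 4605 and 2292 counts at 200 µM and 2152, 3103 and 1648 at 1500 µM. The groups overlapped, because replicate 2 was high at both doses, and each replicate was lower. Its log2 fold change was -0.45 ± 0.11 (SE), with an adjusted p of 0.320 in edgeR and 0.0013 in DESeq2, and 8 of its 10 guides were lower. TRAF3.10 (575, 448 and 713 counts against 348, 240 and 453) and TRAF3.1 (107, 2190 and 380 against 72, 1166 and 268) were lower in all 3 pairs, while TRAF3.4 (23, 185 and 0 against 92, 235 and 76) went the other way. On total counts alone, without TMM factors, both BIRC2 and TRAF3 passed in edgeR. At that scaling most sums were lower, with a median log2 fold change of -0.147 over all genes and 17.6% of them higher.

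On summed counts the other genes of the list of NF-kappaB ligases and adaptors lay on the same side by smaller amounts. The list is not confined to non-canonical signalling. All 17 of its genes had a negative fit, from -0.45 for TRAF3 to -0.0013 for TRAF5, where 50.5% of all genes did. Their median was -0.15, against -0.0021 over all genes. No member passed edgeR's test, and after BIRC2 and TRAF3 none was called by DESeq2. TNIP1, which binds the ubiquitin editor TNFAIP3, had -0.24 ± 0.14 (SE) and RIPK1, the kinase of the TNF receptor complex, -0.19 ± 0.13, both with pair 1 on the other side. IKBKG, the regulatory subunit of the kinase complex, had -0.16 ± 0.099, and 6 of the 17 members were lower in all 3 pairs. By pair, 12, 14 and 13 of the 17 were lower in pairs 1, 2 and 3. On the mean guide level, where each guide counts equally, 14 of the 17 were lower, where 404 of all 1116 genes were. Their median there was -0.17, against 0.09 over all genes. By pair it was 0.053, -0.26 and -0.095 in pairs 1, 2 and 3, so pair 1 lay on the other side. With the median of the guides 12 of the 17 were lower, as with at least 50 counts. On the mean guide level SHARPIN and RBCK1, subunits of the linear ubiquitin chain complex, had -0.51 ± 0.15 and -0.34 ± 0.20 (SE). RNF31, the catalytic subunit of that complex, had 0.36. Leaving out replicate 1, 2 or 3 left 12, 16 and 15 of the 17 lower on summed counts, and 16 were lower without the most abundant guide, without the block and in limma-voom. Earlier results of these data were known when the list was made, and they already showed BIRC2 and TRAF3 at the low end against 0 µM.

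**Figure D3:**
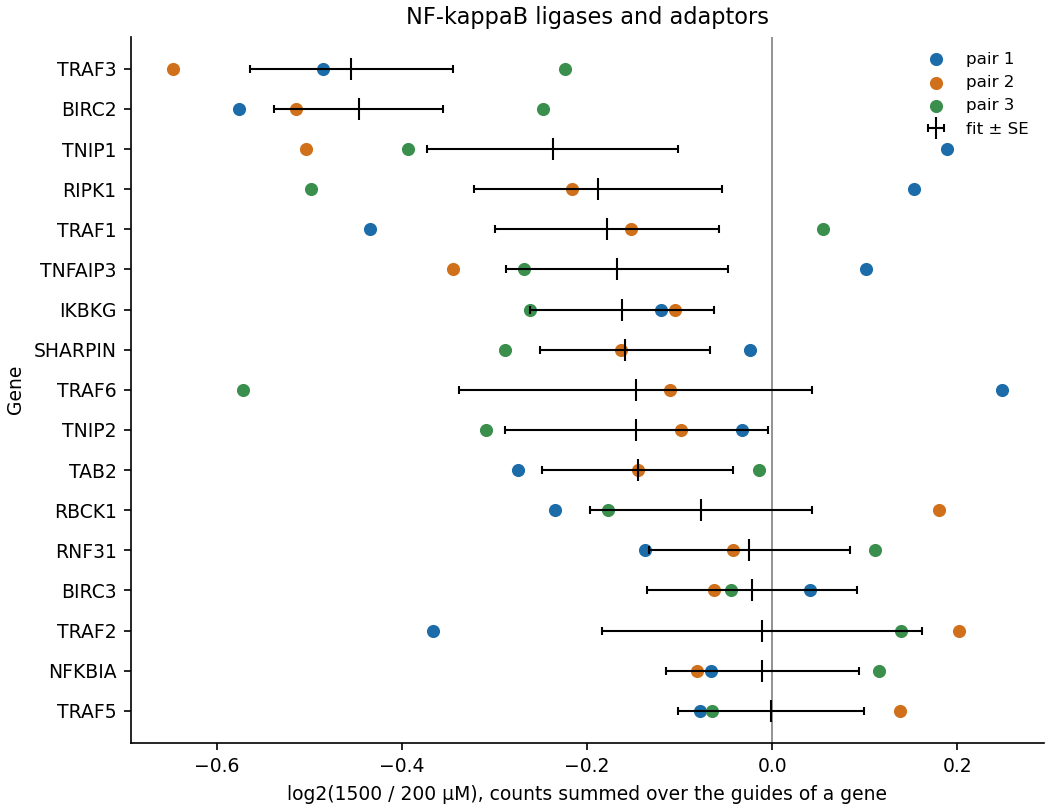
Log2 of 1500 over 200 µM for counts summed over the guides of each of the 17 NF-kappaB ligases and adaptors (x axis), with 1 dot per replicate pair and a bar for the edgeR fit ± SE. BIRC2 and TRAF3 have all 3 dots below 0 and intervals well away from it, and most other genes have dots on both sides.

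After BIRC2 and TRAF3, the lower sums of lowest p in edgeR were those of WWTR1, RB1 and NGFR. WWTR1, a co-activator at the end of the Hippo pathway, had 1260, 1941 and 1479 counts at 200 µM and 1030, 1541 and 790 at 1500 µM, a log2 fold change of -0.55 ± 0.15 (SE) and a DESeq2 adjusted p of 0.0022, with 8 of 9 guides lower. RB1, the retinoblastoma repressor of cell-cycle entry, had 1985, 2507 and 2704 counts against 1872, 2181 and 1562, and -0.40 ± 0.11 (SE) with a DESeq2 adjusted p of 0.0049. On the mean guide level RB1 was 0.28 ± 0.26 (SE), with 5 guides higher and 5 lower, so sum and mean differ in sign. NGFR, a neurotrophin receptor of the TNF receptor family, had 2465, 1206 and 2050 counts against 2490, 923 and 1240, and -0.41 ± 0.13 (SE) with a DESeq2 adjusted p of 0.0203. The other lower genes that DESeq2 called were BTRC, CBLL1, CCNF, KLHL3, PEX2, ANAPC2, EGR2, FBXO16, ASB2, ATG7, KCTD4, MARCH5 and NSD1.

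Of the sums called higher, XIAP had 0.59 ± 0.13 (SE) with an adjusted p of 0.208 in edgeR and 0.0013 in DESeq2. The sum was 1589, 1589 and 3738 counts at 200 µM and 2493, 3443 and 4132 at 1500 µM, and without XIAP.8 1086, 985 and 642 against 1170, 917 and 491. WDR26, a subunit of the CTLH ubiquitin ligase, had 1065, 1751 and 1497 counts against 2227, 2158 and 1917, and the groups overlapped once scaled for library size. The log2 fold change of the sum was 0.53 ± 0.13 (SE) with a DESeq2 adjusted p of 0.0147, and 8 of 9 guides were higher, but in pair 2 the ratio was 0.22 against 0.75 and 0.61 in pairs 1 and 3. RANBP10, a relative of another CTLH subunit, was also among the 6 genes, at 0.35 ± 0.11 (SE). UBE2D4 had 1918, 1711 and 4220 counts against 3119, 2539 and 4160 and 0.37 ± 0.10 (SE), with 9 of 10 guides higher and a DESeq2 adjusted p of 0.0111. ATG3, the conjugating enzyme of autophagy, had 0.38 ± 0.12 (SE) with a DESeq2 adjusted p of 0.0491. MAD2L1, a spindle checkpoint protein, had 120, 784 and 145 counts against 385, 991 and 286 and 0.94 ± 0.29 (SE), with no call in edgeR (adjusted p = 0.552) and no adjusted p in DESeq2.

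When every guide of a gene was given the same weight, more targets were higher than lower. The mean over tested guides of log2(CPM + 1) was higher at 1500 µM for 712 of 1116 genes (63.8%), with a median change of 0.09. With genes split by level into 4 equal groups, from the scarcest to the most abundant, the median change was 0.14, 0.11, 0.11 and 0.047. Fewer guides were at 0 at the high dose: of the tested guides, 699 ± 150 had no count at 1500 µM and 891 ± 110 at 200 µM (SD, n = 3), fewer in 3 of 3 pairs, and the exact two-sided sign-flip test gave p = 0.25, the smallest that 3 pairs allow. Thinned to 1852340 counts per library, guides with no count numbered 1543, 1291 and 1195 at 1500 µM and 1698, 1423 and 1560 at 200 µM over all 11170 guides. Whether this sets the shift of the scarce genes was not tested. The shift depends on the scaling, since on total counts alone the median was -0.035 and 45.2% of genes were higher, and the sums then were higher for 17.6% of genes in place of 49.5%.

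No gene passed on this measure in limma (0 of 1116, 0%), with 76 genes at an unadjusted p under 0.05, 61 higher (5.47%) and 15 lower (1.34%), and a lowest adjusted p of 0.310. MED6, a Mediator subunit, had a mean level of 3.62 at 200 µM and 4.84 at 1500 µM, a difference of 1.22 ± 0.31 (SE) with 6 of 7 guides higher. SUMO2, a ubiquitin-like modifier, had 3.06 and 4.43, a difference of 1.37 ± 0.39 (SE). All 8 of its tested guides were higher, and SUMO2.9 went from 9, 82 and 0 counts to 34, 154 and 146. PSMA6, an alpha subunit of the proteasome core, had 0.69 ± 0.22 (SE). At the low end, PRPF19, a ligase of the spliceosome, had -1.21 ± 0.40 (SE) over 2 tested guides with pair 1 on the other side, UEVLD had -0.88 ± 0.34, and MARCH5, a ligase of the mitochondrial outer membrane, had -0.57 ± 0.22 with 8 of 10 guides lower. None of these passed in limma.

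Cell-division genes of the lists outside the anaphase-promoting complex had no call, and their counts stand beside the 63.8% of all genes that were higher on this measure. RB1 and CCNF, a cyclin-like F-box protein (-0.37 ± 0.12 (SE) on sums, DESeq2 adjusted p = 0.0389), are in neither list and were called lower by DESeq2. Of 9 spindle checkpoint and mitotic kinase genes 6 were higher, with a median of 0.26 (0.23, 0.15 and 0.45 without replicates 1, 2 and 3), and on sums 5 were higher and 4 lower. CCNB1, the mitotic cyclin, had 0.83 ± 0.27 (SE), MAD2L1 1.01 ± 0.37, MAD1L1, its partner, 0.63 ± 0.24, and BUB1B, a checkpoint kinase, 0.53 ± 0.29. Of the 8 cyclins, CDKs and inhibitors, which share CCNB1, 6 were higher with a median of 0.34 (0.35, 0.22 and 0.23 without replicates 1, 2 and 3). CDKN2A, an inhibitor of CDK4 and CDK6, had 0.56 ± 0.23, CDK2 0.48 ± 0.29 and CDKN1A, a CDK inhibitor, 0.35 ± 0.21.

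The anaphase-promoting complex, the ligase that ends mitosis, had 9 of 20 genes higher, where 63.8% of all genes were. Its median was -0.061 (-0.18, -0.063 and 0.054 without replicates 1, 2 and 3, and 0.09 with the median of the guides). ANAPC2, its cullin subunit, had -0.64 ± 0.42 (SE) on the mean level, ANAPC5 -0.73 ± 0.40 and CDC26 -0.49 ± 0.34, while its inhibitor FBXO43 had 0.62 ± 0.29. ANAPC2 was lower on summed counts (550, 3320 and 393 counts against 385, 3231 and 204, -0.53 ± 0.17) with a DESeq2 adjusted p of 0.0412. FBXO5, the other inhibitor of the complex and a gene in the series title, was scarce in the pool. It had 28, 168 and 30 counts over all its guides at 200 µM and 63, 130 and 131 at 1500 µM, and only 4 guides could be tested. FBXO5.2, FBXO5.4 and FBXO5.8 were seen in replicate 2 alone (73, 12 and 26 counts at 200 µM and 24, 28 and 25 at 1500 µM). The log2 fold change was 0.88 ± 0.76 (SE) on sums and -0.15 ± 0.64 on the mean level, so no difference was detectable at this depth. DOK6, MGMT and MPG were not analysed here.

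Core proteasome genes gave no common direction. The 14 genes split 7 to 7, with a median of 0.067, or -0.022 on total counts alone and -0.093 with no count filter, and pair medians of -0.48, 0.020 and 0.44. The median was 0.298, -0.045 and -0.24 without replicates 1, 2 and 3. PSMA1 had 0.60 ± 0.27 (SE), PSMA2 0.76 ± 0.54 with pair values from -1.52 to 3.44, and PSMB2 0.46 ± 0.33. Of the 15 genes of the regulatory cap 11 were higher, where 63.8% of all genes were, with a median of 0.16 (0.26, 0.33 and 0.045 without replicates 1, 2 and 3). PSMD6 had 0.82 ± 0.32 (SE), PSMD13 0.93 ± 0.37, PSMD1 0.72 ± 0.41 and PSMC4 0.50 ± 0.31.

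Neddylation, which attaches the modifier that switches cullin ligases on, had 6 of 7 genes higher on the mean level and 7 of 7 on sums, with medians of 0.26 and 0.25, and the former was -0.038, 0.17 and 0.11 without replicates 1, 2 and 3. Over all genes 63.8% were higher on the mean level and 49.5% on sums. NEDD8, the modifier, had 0.82 ± 0.35 (SE) on the mean level, its E2 enzymes UBE2F and UBE2M 0.30 ± 0.28 and 0.26 ± 0.30, and UBA3, of its E1, 0.42 ± 0.41. Of the 16 cullin, RBX and COP9 signalosome genes 9 were higher, with a median of 0.066 (0.18 without replicate 3), or -0.051 on total counts alone and -0.035 with no count filter. CUL3 had 0.92 ± 0.30 (SE), SKP1 0.44 ± 0.31, CUL9 0.34 ± 0.25 and RBX1 0.40 ± 0.36.

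No gene of the DNA damage lists passed, and their numbers of higher genes stand beside 63.8% of all genes. RAD6-RAD18 damage tolerance, which lets replication pass lesions, had 5 of 10 genes higher and a median of 0.0096, which was -0.012 with RLE factors, -0.014 with a pseudocount of 0.5 CPM and -0.11 on total counts alone, and 0.21, -0.101 and -0.072 without replicates 1, 2 and 3. HLTF, which remodels stalled forks, had 0.55 ± 0.21 (SE), MAD2L2, of translesion synthesis, 0.79 ± 0.40, and UBE2V1 -0.59 ± 0.33. Of the 7 Fanconi and homologous recombination genes 6 were higher, with a median of 0.17 (-0.11, 0.52 and 0.084 without replicates 1, 2 and 3). FANCF had 0.46 ± 0.25, BARD1 0.59 ± 0.40 and UBE2T 0.17 ± 0.29. Of 12 histone ubiquitin ligases of the damage response 9 were higher, with a median of 0.20. RNF2 had 0.75 ± 0.31, HERC2 0.56 ± 0.29, RNF40, which modifies histone H2B, 0.57 ± 0.32 and UBE2E1 0.40 ± 0.23. Among 11 genes of the MDM2 ligase list 8 were higher, with a median of 0.26 (0.398, 0.054 and -0.0013 without replicates 1, 2 and 3). RFWD2 had 0.63 ± 0.26 and TRIM28 0.42 ± 0.20, while MDM2, a RING-type ligase, had -0.32 ± 0.33 on the mean level and 0.25 ± 0.14 on sums (6586, 546 and 794 counts against 7049, 843 and 932, of which MDM2.1 held 6156 and 6620 in replicate 1).

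In the remaining lists values again moved when a pair was left out, and those for replicates 1, 2 and 3 in turn stand in brackets. Numbers of higher genes are to be read beside the 63.8% of all genes that were higher. Of 13 Polycomb genes 10 were higher, with a median of 0.16 (0.23, 0.15 and 0.101), and CBX8, PCGF2 and SUZ12 had 0.50 ± 0.21, 0.40 ± 0.20 and 0.60 ± 0.31 (SE). Of 15 Mediator genes 10 were higher, with a median of 0.18 (0.039, 0.034 and 0.33), and MED24, MED21 and MED1 had 0.52 ± 0.21, 0.85 ± 0.36 and 0.42 ± 0.28. Of 22 SUMO and UFM1 genes 16 were higher, with a median of 0.18 (0.31, 0.083 and 0.096). The SUMO proteases SENP2 and SENP1 had 0.41 ± 0.23 and 0.34 ± 0.23. The 10 E1 enzymes split 5 to 5 with a median of 0.14 (0.13, 0.22 and 0.073), and MOCS3, UBA7 and UBA2 had 0.80 ± 0.27, 0.39 ± 0.20 and 0.44 ± 0.31. Of 28 HECT ligases 18 were higher, with a median of 0.14 (0.14, 0.12 and 0.098), and HECTD3, NEDD4 and AREL1 had 0.48 ± 0.16, 0.46 ± 0.23 and 0.42 ± 0.22. The 5 HSP70 and TRiC chaperone genes had a median of -0.28 (-0.29, 0.093 and -0.35), or 0.021 with at least 50 counts, with -0.33 ± 0.23 for CCT2, -0.74 ± 0.67 for HSPA9, -0.28 ± 0.44 for TCP1 and 0.20 ± 0.35 for HSPA8. The 7 inhibitor of apoptosis genes had a median of -0.063 (0.014, -0.13 and 0.0096). It was also above 0 with a pseudocount of 5 CPM (0.050), with the median of the guides (0.053), with at least 50 counts (0.11) and with no count filter (0.079). Members had -0.17 ± 0.19 for BIRC3, 0.33 ± 0.16 for BIRC8 and -0.31 ± 0.36 for BIRC5. No member of any list passed in edgeR or limma, and no test of a list was made.

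**Figure D4:**
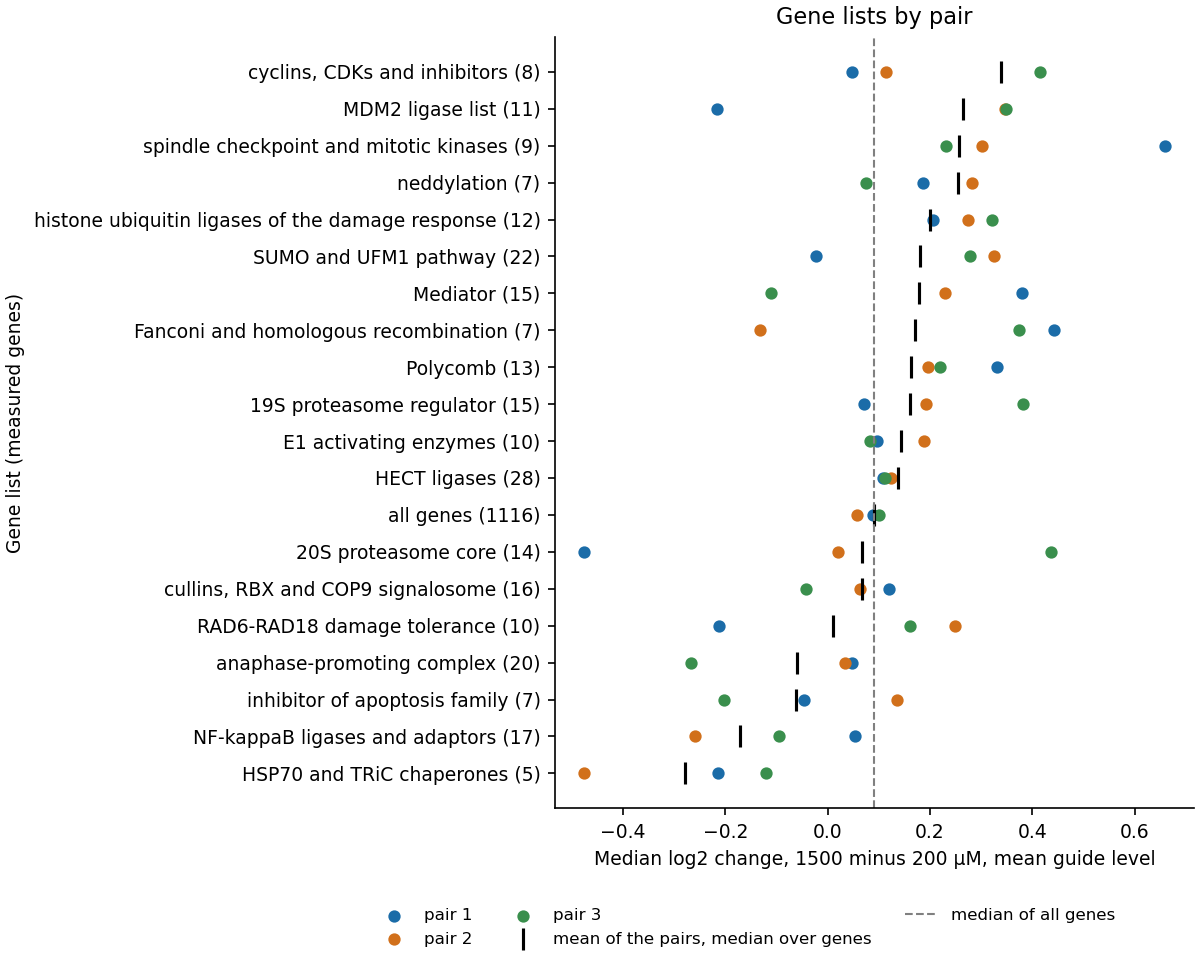
Median over the genes of each list (measured genes in brackets) of the log2 change from 200 to 1500 µM on the mean guide level, with 1 dot per replicate pair and a tick for the genes' fitted changes. The dashed line is the median of all genes, 0.09; most ticks lie between it and 0.34, NF-kappaB and chaperone genes have the lowest ticks, and the pairs of the proteasome core span -0.48 to 0.44.

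A single guide, UBE2A.7, headed every library at 1500 µM, but it also headed replicates 2 and 3 at 200 µM and at 0 µM. At 0 µM it took 1.13 and 0.367% of the counts there. In replicate 1 it ranked 28 at 0 µM and 5 at 200 µM. UBE2A.7 targets UBE2A, a RAD6-type E2 enzyme that marks PCNA and histone H2B. It had 5980, 15206 and 63921 counts at 200 µM and 169519, 472612 and 104875 at 1500 µM, which is 0.289, 0.768 and 2.60% against 6.07, 18.6 and 4.97% of the library. Exact Clopper-Pearson 95% intervals at 1500 µM were 6.05 to 6.10%, 18.5 to 18.6% and 4.94 to 4.997%, and cover counting error only. The groups did not overlap, but the pair ratios were 4.52, 4.87 and 0.95 on the log2 scale, and the log2 fold change of 3.597 ± 1.21 (SE) passed in neither edgeR nor DESeq2 (adjusted p = 0.174 in the latter).

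The share of the most abundant guide was 9.87 ± 7.56% at 1500 µM and 1.26 ± 1.17% at 200 µM (SD, n = 3), higher in 3 of 3 pairs, with an exact two-sided sign-flip p of 0.25. The Gini index, which is 0 where all guides are equal, was 0.651 ± 0.045 and 0.629 ± 0.013, higher in 2 of 3 pairs (exact p = 0.5). UBE2A had the lowest p on the mean guide level, 0.48 ± 0.11 (SE) with an adjusted p of 0.310 in limma. Without UBE2A.7, 5 of the 8 other guides were higher and the summed counts were 2820, 1719 and 2900 at 200 µM and 3710, 2532 and 2483 at 1500 µM, which overlap.

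DCUN1D1.3, against a co-factor of neddylation, and EP300.4, against a histone acetyltransferase, were next in abundance and did not repeat over the pairs. DCUN1D1.3 had 4529, 12240 and 28444 counts at 200 µM and 86558, 20435 and 14329 at 1500 µM, with pair log2 ratios of 3.96, 0.65 and -0.75. EP300.4 had 8474, 8086 and 14907 counts against 29490, 13108 and 10908, with 1.499, 0.61 and -0.21. Both were higher in pairs 1 and 2 and lower in pair 3. The other guides of these genes split 3 higher to 3 lower for DCUN1D1 and 3 to 6 for EP300. MDM2.1 and ARRDC3.1, each among the 3 most abundant guides of a library in replicate 1, had log2 fold changes of 0.34 ± 0.26 and -0.23 ± 0.20 (SE).

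**Figure D5:**
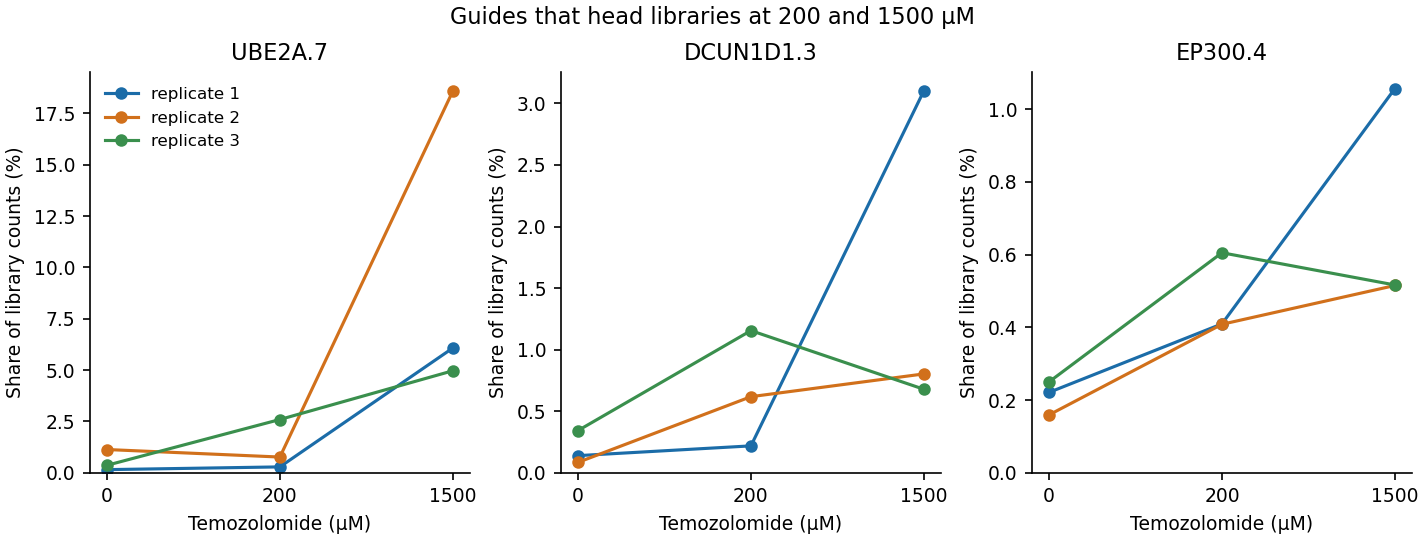
Share of all counts of a library (%, axis from 0 with its own range in each panel) taken by UBE2A.7, DCUN1D1.3 and EP300.4 at 0, 200 and 1500 µM (evenly spaced), with 1 line per replicate number. From 200 to 1500 µM UBE2A.7 climbs in all 3 replicates, to 18.6% in replicate 2, while the other 2 guides climb in replicates 1 and 2 and descend in replicate 3.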

How the data were processed

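DNA of U251 cells was counted for sgRNAs, and the authors deposited their raw counts, 1 row per guide with its target gene, in a table of all libraries. Per the submitters' processing notes, the tools were cutadapt 1.18 and MAGeCK 0.5.8 and the build hg19; the sources used here do not say how mismatches and rare guides were treated. Gene names follow the table: 1076 of 1117 were current in RefSeq's table of GRCh38.p14, 40 matched 1 older symbol and 1 was kept. No guide was named as non-targeting. A count of 0 allows up to 3 counts, 1.08 to 1.52 CPM in the 6 libraries; no molecular identifiers were stated.

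Guides that reached 10 counts in 3 or more of 9 libraries were tested with edgeR 4.0.16 (TMM, robust quasi-likelihood) in R 4.3.3 with the replicate number as a block. Genes were tested on counts summed over their guides (edgeR) and, with at least 2 tested guides, on the mean of log2(CPM + 1), with a pseudocount of 1 CPM (limma 3.58.1 with trend). P-values were adjusted by Benjamini-Hochberg over all guides or genes, with a threshold of 0.05. The SE of an edgeR value is the log2 fold change over the root of its F statistic. DESeq2 1.42.0 (independent filtering set for 0.05), limma-voom and other scalings, filters and pseudocounts were alternatives. Scripts were tested on simulated data. The pairing was checked before fits were compared: it comes from the replicate numbers in the column names, whose deviations correlated above 0.66 in each pair.

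The comparison and the gene lists were chosen with earlier results of these data known. Named were the 5 guides and genes of lowest p per direction where fewer than 5 passed, up to 10 guides per direction past DESeq2, the 3 most abundant guides per library, a fixed set of genes where measured (FBXO5 and MDM2 among them), and up to 4 members of lowest p of each list. Some genes that this rule names are not reported here.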

Additional observations from a re-analysis of the deposited data

How the results depend on the processing

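The counts of calls stayed at 0 for guides and for both gene measures under the no replicate block fit, RLE factors and the filters tried, with the exceptions given here. For guides DESeq2 with the replicate block called 43, and, in settings chosen after seeing the data, 20 with filtering set for 0.1, 11 with no independent filtering and 4 over all 9 libraries (CUL9.4, KCTD14.8, ANAPC10.8 and MVB12A.8, all lower and all scarce). For summed genes DESeq2 called 24 and total counts alone 2 (BIRC2 and TRAF3). For the mean guide level all 9 libraries called 1 (UBE2A). Leaving out 1 replicate pair gave 0 to 1 summed genes (XIAP without replicate 1), 0 to 1 genes by mean level (UBE2A without replicate 3), 0 guides, and a mean pair correlation of -0.011 to 0.036, lowest without replicate 3. Without the replicate block, the unadjusted p was under 0.05 for 21 guides in place of 202, 1 summed gene in place of 74 and 4 genes by mean level in place of 76. The differences in Gini index, guides with no count and top share kept their direction when thinned, over tested guides alone and without each pair, at 0.0049 to 0.038, -263.5 to -144.5 and 4.02 to 11.7 percentage points.

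Single values that changed sign follow; the cause was not tested. MDM2.1 was -0.14 and MDM2 sums -0.071 with no replicate block, and MDM2.1 was -0.17 in limma-voom. With the median of the guides UBE2A was -0.051, MDM2 0.065, PSMB2 -0.076, UBE2F -0.14, UBA3 -0.0030, CDKN2A -0.14, HSPA9 0.11, SENP1 -0.18, BIRC3 0.053 and BIRC5 0.36. With at least 50 counts RBX1 was -0.29, BARD1 -0.52 and BIRC5 0.11, and with no count filter FBXO5 was 0.53, PSMA2 -0.37, RBX1 -0.44 and BIRC5 0.079. Leaving out 1 pair gave ranges of -0.052 to 2.30 for DCUN1D1.3, -0.66 to 0.012 for MDM2, -0.57 to 1.93 for PSMA2, -0.081 to 0.67 for UBE2F, -0.11 to 0.55 for UBE2T, -2.08 to 0.46 for HSPA9, -0.56 to 0.030 for TCP1, -0.53 to 0.21 for FBXO5, -0.030 to 0.74 for SKP1 and -0.0054 to 0.81 for UBA3. At about 200 counts per guide, changes of guides near 0 counts could not be resolved.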
